A study of Mus musculus with 22 samples.

Results

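The genes described here encode the nuclear pore complex, the receptors that carry cargo through it, the Ran cycle and the nuclear lamina. They were taken by symbol: nucleoporins (names starting Nup and a digit, or Nupl), importins and exportins (Ipo, Xpo, Kpna and Kpnb genes), and Tpr, Ran, Rangap1, Lbr, Lmna, Lmnb1 and Lmnb2. This gave 51 of 22592 gene symbols, and all 51 stand in each of the 4 deposited tables. By role there are 6 genes of the outer ring or Y complex, 5 of the inner ring, 3 of the central channel, 2 of the membrane ring, 3 of the nuclear basket, 4 of the cytoplasmic face and mobile pool, 6 importin alpha genes, 8 of the importin beta family, 6 exportins, 2 of the Ran cycle, 4 of the lamina and 2 others. The rule itself reads symbols and no expression value, and the set was proposed with earlier results of these data known.

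RNA was measured by Smart-seq2, a full-length method for small amounts of RNA, in 22 libraries of mouse oocytes and embryos. Setd2 encodes the enzyme that trimethylates lysine 36 of histone H3. It was compared in growing oocytes of 20 to 30 µm from females of postnatal day 7 (labelled Setd2+/- or Setd2-/-), in full-grown oocytes (FGO) at the germinal vesicle stage collected 48 h after PMSG, in zygotes labelled 1C and taken 30 h after hCG, and in embryos with 48 h in their title (labelled Setd2_Con or Setd2_KO). At 48 h the controls are labelled 2C and the knockouts 1C, so genotype there comes with a different cell stage. In 8-cell embryos made by spindle transfer (ST) between Setd2mNull and control oocytes followed by sperm injection, the labels Setd2+/- and Setd2-/- do not say whether they name the donor of the spindle or the recipient cytoplasm. Each of these groups had 2 libraries. FGO labelled Dnmt3l_Con and Dnmt3l_KO, for the cofactor of the de novo DNA methyltransferases, had 1 library each and no replicate error. Females of the FGO, embryo and spindle transfer series were 8 weeks old, and the study's design calls the Setd2 loss in FGO and zygotes maternal. The Cre line that made the knockout is not named in the labels used here.

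The nuclear pore is a ring-shaped channel in the nuclear envelope, with an outer ring that coats the membrane, an inner ring that anchors the channel, a central channel of proteins with phenylalanine-glycine repeats, cytoplasmic filaments and a nuclear basket. Importin alpha recognises a nuclear localisation signal and is carried through by importin beta 1 (Kpnb1), other importins bind cargo directly, and exportins leave the nucleus together with Ran bound to GTP, which Rangap1 makes Ran hydrolyse in the cytoplasm. A full-grown oocyte stores transcripts for the first divisions, and the mouse embryo replaces maternal with embryonic transcripts mainly around the 2-cell stage.

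Transcript levels of members moved in opposite directions when control zygotes became 2-cell embryos, so the 250 bases upstream of the start are shown for the 2 members with the largest falls and the 2 with the largest rises among those with a single entry in the table of promoters (RefSeq, GRCm38.p6, read on the gene's strand). They are Kpna7 at chr5:145009637-145009886 on the minus strand and Ipo8 at chr6:148831468-148831717 on the minus strand, which fell, and Xpo1 at chr11:23255791-23256040 on the plus strand and Ipo11 at chr13:106936959-106937208 on the minus strand, which rose. Capitals mark CCAAT (read as ATTGG on the other strand) and GGGCGG, the cores of the CCAAT box and the GC box.
Kpna7: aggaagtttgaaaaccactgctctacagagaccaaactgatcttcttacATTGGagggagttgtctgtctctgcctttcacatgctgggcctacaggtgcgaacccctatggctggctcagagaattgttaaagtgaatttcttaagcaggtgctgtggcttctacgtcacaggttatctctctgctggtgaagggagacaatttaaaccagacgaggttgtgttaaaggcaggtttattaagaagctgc
Ipo8: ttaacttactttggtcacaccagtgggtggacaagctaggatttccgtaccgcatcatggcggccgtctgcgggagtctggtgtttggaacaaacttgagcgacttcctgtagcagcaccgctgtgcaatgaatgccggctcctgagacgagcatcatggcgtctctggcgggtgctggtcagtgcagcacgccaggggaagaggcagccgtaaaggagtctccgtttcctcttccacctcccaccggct
Xpo1: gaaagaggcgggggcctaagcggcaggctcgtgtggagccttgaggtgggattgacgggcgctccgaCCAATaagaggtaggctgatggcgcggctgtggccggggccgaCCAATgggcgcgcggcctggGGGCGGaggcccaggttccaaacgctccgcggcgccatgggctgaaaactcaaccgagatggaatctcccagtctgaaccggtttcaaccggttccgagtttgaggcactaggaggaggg
Ipo11: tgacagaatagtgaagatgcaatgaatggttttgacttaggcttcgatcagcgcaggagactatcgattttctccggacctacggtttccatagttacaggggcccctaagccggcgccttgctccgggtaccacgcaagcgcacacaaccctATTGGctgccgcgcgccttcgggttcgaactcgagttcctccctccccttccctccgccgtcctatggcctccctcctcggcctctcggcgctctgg

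The Kpna7 window held 46.0% G and C and 3 CpG, with 1 CCAAT match and no GGGCGG. The other 3 were richer in CpG. The Ipo8 window held 58.0% G and C and 15 CpG with neither motif, that of Xpo1 held 65.2% and 22 CpG with 2 CCAAT and 1 GGGCGG, and that of Ipo11 held 59.2% and 21 CpG with 1 CCAAT. The table has entries for 40 of the 51 members, with 47 promoters. Among these 47, whatever their change, 30 held the GC box core (63.8%) and 24 the CCAAT box core (51.1%). GGGCGG on either strand was present in 13 of 18 promoters of members that rose at 48 h in controls (72.2%), in 5 of 15 of those that fell (33.3%) and in 32.7% of all 32851 promoters. CCAAT on either strand was present in 10 of the 18 (55.6%), in 9 of the 15 and in 33.8% of all. The members that rose were all those called higher. Genes that could only come out higher, because the 48 h controls alone exceeded 1 FPKM, were not removed from them. These shares are descriptions of letters in a window, were not tested, and do not show that a factor binds. The windows also differed in base composition. The 47 held a median of 62.8% G and C and 21 CpG, against 52.4% and 6 for all promoters. The medians were 64% and 22 for members that rose and 60% and 16 for those that fell. All promoters were counted whether or not their gene was expressed. The part of composition in the motif shares was not tested.

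Values are FPKM (fragments scaled by transcript length and library size), which may be compared between genes as levels per length. FPKM is a share of a library, so in these bulk samples fewer cells holding a transcript and less transcript per cell cannot be told apart. Changes are on the log2(FPKM + 1) scale, which understates changes of low genes, and were tested with limma over all genes with at least 1 FPKM in 2 libraries of a table, called at a Benjamini-Hochberg adjusted p under 0.05. They are given relative to the median log2 change of all genes tested, which for the knockout effect was -0.04 (growing oocytes), -0.19 (FGO), 0.01 (zygote), 0.43 (48 h) and -0.07 (spindle transfer), and -0.06, 0.09, -0.34 and 0.02 for the steps from FGO to zygote and from zygote to 48 h in controls, in knockouts, in controls and in knockouts. The p-values belong to the change before this shift. For the difference of the knockout effects the median was 0.20 between zygote and FGO and 0.36 between 48 h and zygote.

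Nothing in the labels says that the 2 libraries of a group came from separate females, so the p-values measure the spread between these libraries, and an exact permutation test of 2 libraries against 2 cannot go below p = 0.33. Approximate depth, from the smallest steps between low FPKM values, lay between 3.33 and 7.68 M fragments (M is mega) for embryos and growing oocytes and between 9.53 and 22.3 M for FGO. Replicates ranked the members alike, with Spearman correlations of 0.964 to 0.991 across these genes, which are not independent replicates. Setd2 itself was 4.55 ± 0.289 FPKM (SD, n = 2) in control and 0.947 ± 0.0296 in knockout FGO, 10.5 ± 2.33 against 1.52 ± 0.300 in zygotes and 48.1 ± 7.19 against 1.58 ± 0.223 at 48 h. In growing oocytes (4.33 and 6.68 against 3.67 and 3.21) and spindle transfer embryos (18.2 and 17.1 against 15.4 and 18.1) the levels were closer. These FPKM cover the whole gene, so they do not show whether a deleted exon is missing. Dnmt3l was 31.7 FPKM in the library labelled Dnmt3l_Con and 25.0006 in that labelled Dnmt3l_KO. Of 12 oocyte markers at least 10 reached 1 FPKM in every library of FGO, zygotes and 48 h embryos, while in spindle transfer embryos nearly the whole sum (2244 FPKM in the lowest library) was Dppa3, which stood at 2203 there, and Zp1, Gdf9, Bmp15 and Nobox were below 2. A list of 12 granulosa and cumulus markers summed to 0.21 to 40.1 FPKM in the Setd2 libraries.

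Pore and receptor transcripts differed by stage in their makeup and in their share of a library. The 51 genes together took 0.324% to 0.504% of the summed FPKM of a library. In the Setd2 series this share was 0.324% to 0.369% in FGO and 0.441% to 0.504% in zygotes, without overlap. At least 10 FPKM was reached by 28 to 30 of them in growing oocytes and by 21 to 23 in FGO of the Setd2 series. At 48 h 33 and 34 reached it in the controls and 25 and 23 in the knockouts. The most abundant members were Kpna2, Nup37, Nup43 and Ran in growing oocytes, Kpna7 in FGO of the Setd2 series, Kpna2, Kpna7, Nup37 and Nup88 in control zygotes, and Kpna2, Nup43 and Ran in control 2-cell embryos. In both FGO libraries of the Dnmt3l series it was Kpna2. Tables were normalized separately, so levels set across them are descriptions only.

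**Figure D1:**
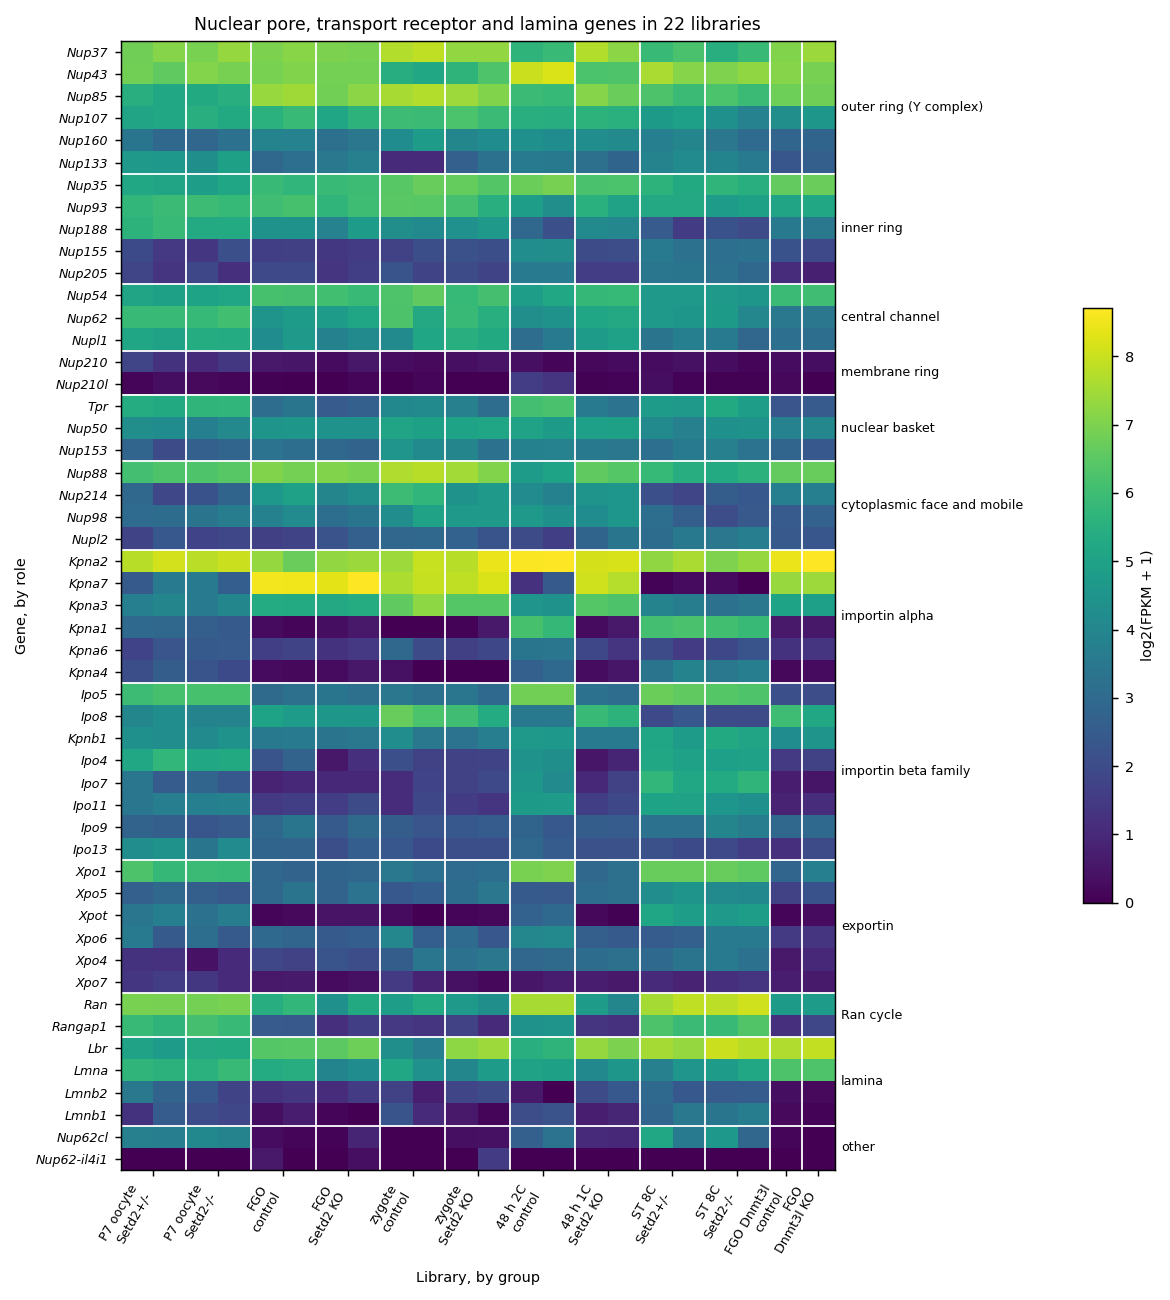
Level of each of the 51 genes as log2(FPKM + 1) (colour) in each of the 22 libraries, with genes in rows by role and libraries in columns by group. Kpna7 is bright in FGO, zygotes and 48 h knockout embryos and dark in 48 h control and 8-cell embryos, while Kpna1, Xpo1 and Ipo5 are brighter in 48 h control and 8-cell embryos than in FGO, zygotes and 48 h knockouts.

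Within a role the members differed widely in level. In the outer ring of control FGO the means ran from 7.36 ± 1.02 FPKM for Nup133 to 169.8 for Nup85, although the proteins assemble into one complex. The inner ring ran from 2.11 for Nup155 to 67.5 for Nup93. In the membrane ring Nup210 stayed at or below 2.51 FPKM in every library and its paralog Nup210l at or below 2.02. Among the exportins of control FGO, Xpot, which exports tRNA, was at 0.125, and Xpo5, which exports precursors of microRNAs, was the highest at 7.90. B-type lamin transcripts were low in FGO (0.262 and 0.569 for Lmnb1 in controls), and Lbr, the lamin B receptor of the inner nuclear membrane, led the lamina genes there at 83.3 and 86.05.

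The makeup of the importin alpha genes differed between stages, and in FGO also between the Setd2 and Dnmt3l series. Kpna2 made up 87.7% ± 0.628 (SD, n = 2) of the summed importin alpha FPKM in Setd2+/- growing oocytes, where Kpna7, the isoform known from oocytes and early embryos, made up 2.58% ± 1.07. In control FGO of the Setd2 series Kpna7 made up 68.3% ± 4.92 and Kpna2 23.97% ± 5.39. The order was the reverse in FGO of the Dnmt3l series, with 1 library each. Kpna2 made up 63.98% and Kpna7 29.8% in the Dnmt3l_Con library, and 67.5% and 27.5% in the Dnmt3l_KO library. In control zygotes the shares were 40.0% ± 2.97 for Kpna7, 37.5% ± 1.57 for Kpna2 and 21.5% ± 2.10 for Kpna3. Control 2-cell embryos were again dominated by Kpna2, with 79.8% ± 1.74, followed by Kpna1 with 12.3% ± 2.28, and Kpna7 had 0.578% ± 0.443. In Setd2+/- spindle transfer embryos Kpna1 made up 26.2% ± 2.02 and Kpna7 was at 0.0462% ± 0.0323. Knockout embryos at 48 h had 39.5% ± 3.62 Kpna7, 46.9% ± 3.59 Kpna2 and 0.0584% ± 0.0381 Kpna1, and knockout zygotes 42.2% ± 2.27 Kpna7.

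**Figure D2:**
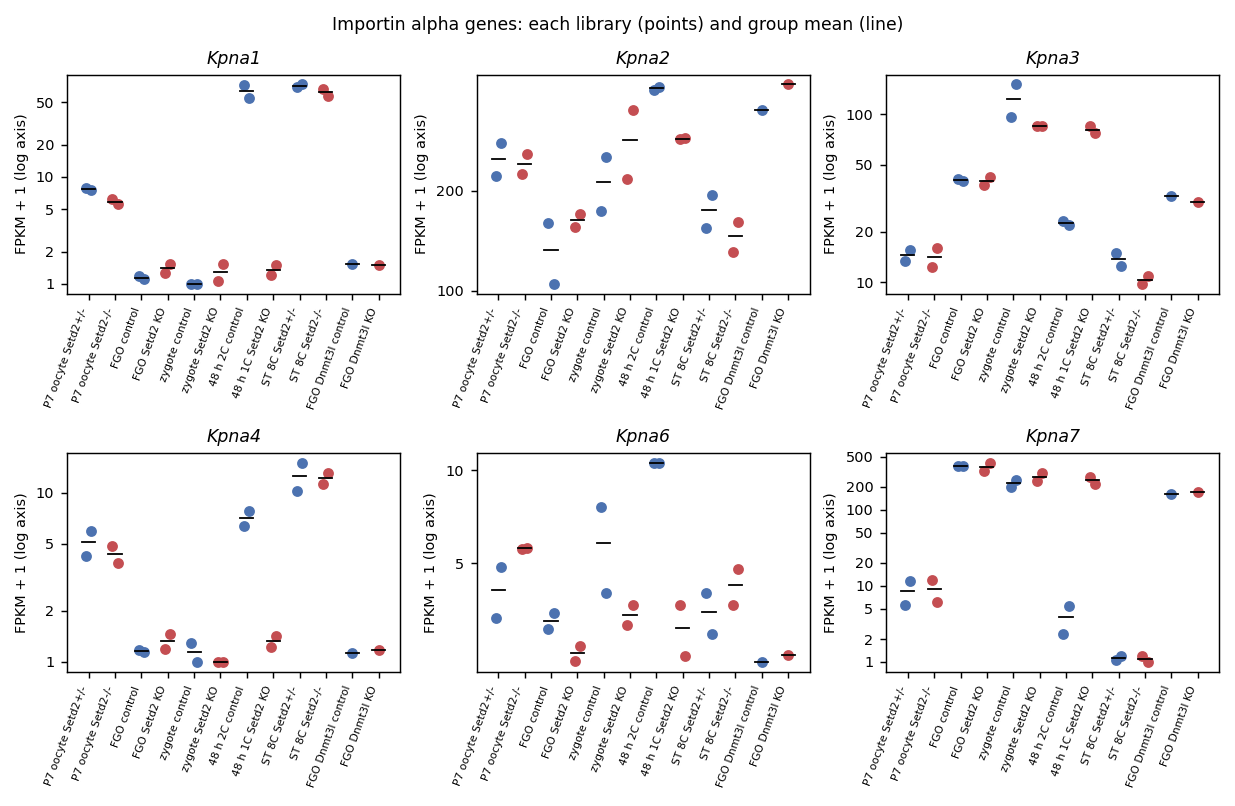
FPKM + 1 on a log axis for the 6 importin alpha genes in every library (points: blue control, red knockout; bars: group mean), with the 12 groups along the x axis. Kpna7 is at 199 FPKM or more in FGO, zygotes and 48 h knockouts of the Setd2 series and at 1.35 and 4.51 in 48 h controls, where Kpna1 is at 71.2 and 54.4.

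From zygote to 2-cell embryo, some receptor and pore transcripts fell and others rose in the control libraries, and none passed the test in the knockout libraries. In controls 35 of the 48 members tested were called, 21 higher and 14 lower (72.9%, with 76.1% of all 12199 genes called), so the share called was near that of all genes. The members' median change was 0.72, and the direction differed by role. Higher calls were made in 33.4% and lower calls in 42.7% of all genes. With median-ratio rescaling 25 members were higher and 14 lower, with 4743 higher and 4602 lower among all 12199 genes. Kpna1, Kpna4, Xpot and Nup210l entered the test only because the 48 h controls exceeded 1 FPKM, so they had to differ there. Nup62cl entered only through 48 h libraries and Lmnb1 only through control zygotes and control 2-cell embryos. The values of these 6 genes are descriptions in every comparison that sets those groups against others of FGO, zygotes and 48 h embryos, although the counts of called members include them where they passed.

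Kpna7 had the largest fall, from 199 and 246 FPKM in control zygotes to 1.35 and 4.51 in control 2-cell embryos. The 2-cell libraries lay far below the zygotes, with a 75.9-fold lower mean and a log2 change of -5.61, SE 0.34, adjusted p = 4.7e-08. Kpna3, another importin alpha, went from 94.8 and 149 to 22.04 and 20.9 with no overlap of the groups, a change of -2.08, SE 0.22, adjusted p = 1.61e-06. In the opposite direction Kpna1 was listed at 0 in both control zygotes and stood at 71.2 and 54.4 in control 2-cell embryos. Kpna2 rose from 172 and 251 to 401 and 411 (1.30, SE 0.28, adjusted p = 0.00797), Kpna6 from 6.62 and 3.01 to 9.54 and 9.58 (0.0202 adjusted p) and Kpna4 stood at 5.34 and 6.79 after 0.298 and 0. Leaving aside Kpna1 and Kpna4, whose entry depended on these 2-cell libraries, Kpna2 and Kpna6 were called higher and Kpna7 and Kpna3 lower. The call for Kpna2 was lost without replicate 1 of the control zygotes (adjusted p up to 0.0834), and that for Kpna6 without replicate 2 of the control zygotes or without either 2-cell library (up to 0.187).

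Of the 8 importin beta family genes, 5 rose and 1 fell. Ipo5, an importer of ribosomal proteins and histones, went from 10.01 and 8.21 FPKM to 116 and 115 and was 12.7-fold higher in the 2-cell embryos (3.87, SE 0.23, adjusted p = 1.29e-07). Ipo11 went from 1.16 and 2.71 to 26.1 and 26.4 (3.61, SE 0.30, adjusted p = 1.59e-06), Ipo7 from 1.17 and 2.39 to 23.2 and 17.1 (3.29, SE 0.31, adjusted p = 5.01e-06) and Ipo4, an importer of histones H3 and H4, from 3.39 and 2.30 to 20.6 and 19.3 (2.80, SE 0.30, adjusted p = 1.62e-05). In each of these 4 genes both 2-cell libraries stood above both zygote libraries. Ipo8 moved the other way, from 102 and 74.8 to 10.6 and 10.5, an 8.40-fold lower mean (-2.60, SE 0.25, adjusted p = 9.85e-07). Kpnb1, which carries importin alpha with its cargo, rose from 18.3 and 10.1 to 25.1 and 23.7 (1.13, SE 0.27, adjusted p = 0.0205), a call lost without replicate 2 of the zygotes or either 2-cell library (up to 0.195). Ipo9 and Ipo13 did not pass.

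Xpo1 and both Ran cycle genes rose, and the other exportins did not pass or entered only through the 2-cell libraries. Xpo1, the exporter of proteins with a leucine-rich export signal, went from 10.3 and 8.10 FPKM to 122 and 129, with both 2-cell libraries far above the zygotes (13.7-fold, 3.98, SE 0.22, adjusted p = 6.42e-08). Xpot stood at 5.74 and 6.96 after 0.181 and 0, and Xpo4, Xpo5 and Xpo6 did not pass. Ran went from 28.4 and 38.9 to 189.9 and 188 (2.81, SE 0.35, adjusted p = 5.57e-05) and Rangap1 from 1.72 and 1.48 to 21.4 and 21.8 (13.5-fold, 3.46, SE 0.27, adjusted p = 1.25e-06). Both genes of the cycle therefore rose without overlap. Reads of Ran could be shared with its near-identical retrogene Rasl2-9, which was at 2.35 to 25.3 FPKM in this table.

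Within the pore itself the roles split. All 3 central channel genes fell, among them Nup54 from 79.1 and 95.4 FPKM to 28.2 and 35.7 (-1.09, SE 0.20, adjusted p = 5.97e-05), and so did 3 of the 4 genes of the cytoplasmic face and mobile pool. Nup88 there went from 202 and 216 to 26.4 and 31.96 (7.16-fold lower, -2.46, SE 0.20, adjusted p = 2.3e-07), and its partner Nup214 from 60.97 and 51.98 to 17.4 and 13.1 (-1.49, SE 0.23, adjusted p = 2.41e-05). Nup62 went from 76.1 and 36.7 to 18.9 and 21.1 (-1.03), Nupl1 (also called Nup58) from 16.3 and 34.7 to 7.70 and 10.7 (-0.96) and Nupl2 from 6.30 and 6.55 to 3.07 and 2.10 (-0.73), the last a call lost without replicate 2 of the 2-cell embryos (adjusted p of 0.0582). Nup62 overlaps the read-through symbol Nup62-il4i1, listed at or near 0 in most libraries.

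The Y complex did not move as one. Nup37 went from 206 and 232 FPKM to 50.2 and 58.2 (-1.66, SE 0.20, adjusted p = 3.76e-06) and Nup85 from 187 and 209 to 60.8 and 56.6 (-1.40, SE 0.22, adjusted p = 2.23e-05). Nup43 rose from 42.2 and 36.1 to 254 and 295 (3.12, SE 0.22, adjusted p = 5.35e-07) and Nup133 from 1.08 and 1.04 to 11.002 and 10.4 (10.1-fold, 2.85, SE 0.28, adjusted p = 7.91e-06). Nup107 and Nup160 did not pass, so 2 of the 6 rose and 2 fell. The inner ring split in the same manner, with Nup93 falling from 87.8 and 86.6 to 27.5 and 18.9 (-1.55, SE 0.28, adjusted p = 7.85e-05) and Nup188 from 18.5 and 16.9 to 6.52 and 3.33, and with Nup155 rising from 2.20 and 3.28 to 18.4 and 18.6 (2.74, SE 0.24, adjusted p = 3.09e-06) and Nup205 from 3.83 and 2.46 to 11.4 and 10.6. The basket gene Tpr rose from 15.8 and 17.1 to 68.1 and 72.9 (4.29-fold, 2.37, SE 0.26, adjusted p = 2.48e-05), while Nup50 and Nup153 did not pass. Nup62cl, a relative of Nup62, was listed at 0 in both zygote libraries and at 5.38 and 8.95 at 2-cell, a description only.

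Of the lamina genes Lbr rose from 19.3 and 12.3 FPKM to 44.2 and 50.2 (1.89, SE 0.23, adjusted p = 9.42e-05). Lmna, which encodes the A-type lamins, was at 36.6 and 20.1 against 31.2 and 29.7 (0.50, SE 0.33, adjusted p = 0.678) and Lmnb1 at 3.77 and 1.10 against 3.14 and 3.67 (0.81, SE 0.33, adjusted p = 0.212), both with overlapping groups. Lmnb2 was called lower from 2.32 and 0.642 to 0.524 and 0, values near the limit of detection, and the call was lost without replicate 1 of the zygotes or replicate 2 of the 2-cell embryos (adjusted p up to 0.281).

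The members that did not pass in this step spanned most roles. Nup107 and Nup160 of the Y complex were at 61.6 and 60.1 FPKM and then 43.5 and 42.2, and at 17.8 and 26.4 and then 19.9 and 17.6. Nup35 of the inner ring was at 85.6 and 101 and then 108 and 121 (0.63), the basket genes Nup153 and Nup50 at 22.2 and 16.5 and then 13.2 and 13.4, and at 33.01 and 29.7 and then 31.2 and 25.96, and Nup98 at 18.4 and 31.7 and then 24.4 and 19.6. The changes of these 6 pore genes ran from -0.16 to 0.63. The receptors Ipo9 (0.50) and Ipo13 (0.92) and the exportins Xpo4 (0.30), Xpo5 (0.30) and Xpo6 (1.09) did not pass either. Xpo7, Nup210 and Nup62-il4i1 did not reach the filter in this table and were not tested.

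Between knockout zygotes and knockout embryos at 48 h, limma called 0 of 48 members (0.205% of all genes were called). An unadjusted p under 0.05 was reached by 4 members and by 1240 of all 12199 genes. Kpna7 was at 236 and 299 FPKM in knockout zygotes and 270.2 and 214 at 48 h, overlapping (-0.16, SE 0.34, adjusted p = 0.936). Xpo1 was at 7.17 and 7.90 against 6.77 and 8.31 (-0.02, SE 0.22, adjusted p = 1), Ran at 25.3 and 19.2 against 27.3 and 14.8 (-0.14, SE 0.35, adjusted p = 0.952) and Kpna2 at 216 and 349 against 285 and 287 (0.04, SE 0.28, adjusted p = 0.98). In all 4 genes the groups overlapped. Kpnb1 (0.08, SE 0.27, adjusted p = 0.948), Lmna (-0.06, SE 0.33, adjusted p = 0.996), Lmnb1 (0.45, SE 0.33, adjusted p = 0.689) and Lbr (-0.21, SE 0.23, adjusted p = 0.84) did not pass either. Ipo4 was at 2.26 and 2.48 and then 0.453 and 0.886 (-1.04, SE 0.30, adjusted p = 0.273) and Nup88 at 178 and 133 and then 94.8 and 83.6 (-0.80, SE 0.20, adjusted p = 0.214), the lowest changes among the members.

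**Figure D3:**
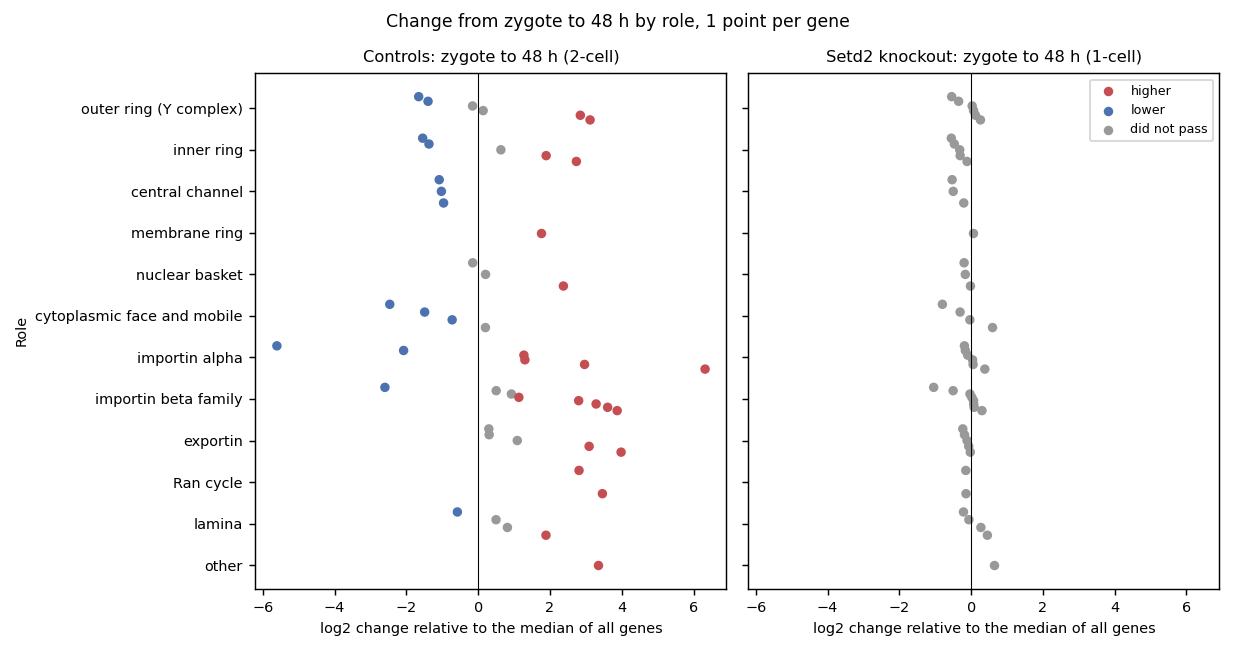
Log2 change from zygote to 48 h relative to the median of all genes (x axis), 1 point for each of the 48 genes tested, by role (y axis), in controls (left) and Setd2 knockouts (right) on the same scale. Points called by limma are red (higher) or blue (lower); controls spread from -5.61 to 6.32 and the knockouts lie between -1.04 and 0.63 with no call.

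At 48 h the knockout 1-cell embryos stood apart from the control 2-cell embryos in most of these genes. Limma called 36 of the 48 members, 15 higher and 21 lower in the knockout (75.0%, with 73.8% of all genes called, 43.2% higher and 30.6% lower), and the members' median change was -0.95. With median-ratio rescaling 10 were higher and 27 lower, and 31 of the 36 calls were kept. Of all 12199 genes, 4468 were then called higher and 4530 lower. This comparison and the steps from the zygote share their 48 h and zygote libraries, so they are not independent of each other, and genotype and cell stage cannot be told apart here.

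Kpna7 was 270.2 and 214 FPKM in the knockouts and 1.35 and 4.51 in the controls, an 82.6-fold higher mean (5.64, SE 0.34, adjusted p = 4.68e-08). Kpna1 differed the other way, at 0.202 and 0.494 against 71.2 and 54.4, a description because it entered through the controls alone. Neither isoform overlapped between the genotypes. Xpo1 stood at 6.77 and 8.31 against 122 and 129, 16.7-fold lower (-4.33, SE 0.22, adjusted p = 4.67e-08), Ipo5 at 8.66 and 7.57 against 116 and 115, 14.2-fold lower (-4.11, SE 0.23, adjusted p = 1.17e-07), and Ipo4 at 0.453 and 0.886 against 20.6 and 19.3 (-4.09, SE 0.30, adjusted p = 8.28e-07). Rangap1 was 1.47 and 1.37 against 21.4 and 21.8 (15.2-fold lower, -3.65, SE 0.27, adjusted p = 1.22e-06), and Ran 27.3 and 14.8 against 189.9 and 188 (8.97-fold lower, -3.60, SE 0.35, adjusted p = 9.17e-06). Ipo7 and Ipo11 were 12.6-fold and 11.01-fold lower. In all of these genes both knockout libraries lay on one side of both controls, as in 18 members higher and 26 lower in all (51.3% and 35.9% of all genes).

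**Figure D4:**
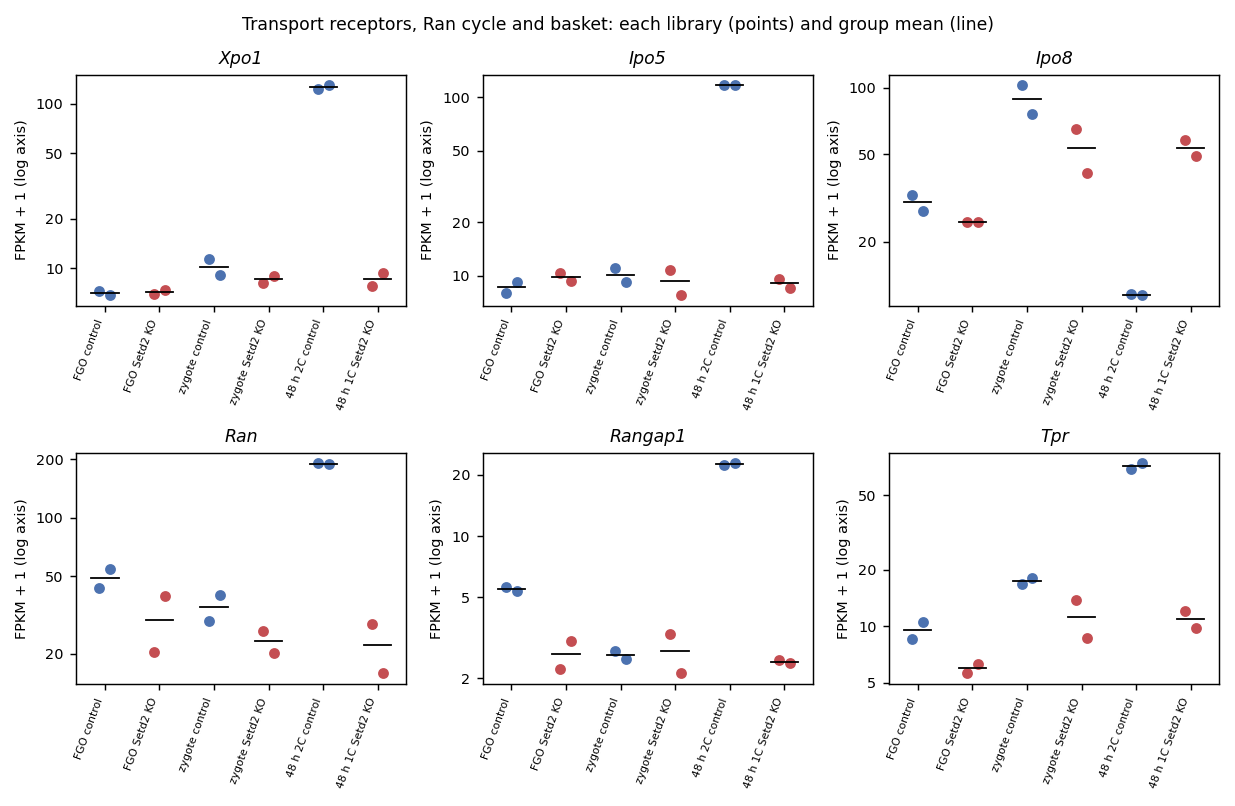
FPKM + 1 on a log axis for Xpo1, Ipo5, Ipo8, Ran, Rangap1 and Tpr in full-grown oocytes, zygotes and 48 h embryos (points: libraries, blue control, red knockout; bars: group mean). The 48 h controls stand above all other libraries for each gene except Ipo8, which is lowest there.

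Receptors higher in the 48 h knockouts were Ipo8 and Kpna3 besides Kpna7. Ipo8 was 56.7 and 47.99 FPKM against 10.6 and 10.5 (4.98-fold, 1.78, SE 0.25, adjusted p = 1.2e-05) and Kpna3 83.7 and 76.1 against 22.04 and 20.9 (3.72-fold, 1.42, SE 0.22, adjusted p = 1.71e-05). Among pore genes Nup37 (1.22, SE 0.20, adjusted p = 2.1e-05), Nup88 (1.15, SE 0.20, adjusted p = 2.58e-05), Nup188 (1.13, SE 0.33, adjusted p = 0.00118) and Nupl1 of the central channel (1.11, SE 0.33, adjusted p = 0.00137) were each 3.06-fold to 3.23-fold higher. Lbr stood at 158 and 125 against 44.2 and 50.2 (1.13, SE 0.23, adjusted p = 0.000102). Nup93, Xpo5, Nup54 and Nup62 were also called higher, but their changes of 0.27, 0.27, 0.34 and 0.39 lay close to the median gene, none passed after median-ratio rescaling, and each also lost its call without at least 1 of the 48 h libraries. For Nup54 this was replicate 1 of the controls (adjusted p up to 0.238), for Nup93 replicate 2 of the controls, where the change was -0.12, or replicate 1 of the knockouts, and for Nup62 and Xpo5 any of the 4 libraries (up to 0.284 and 0.309).

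Role by role, both Ran cycle genes were lower in the 48 h knockouts. All 3 central channel genes were called higher, but Nup54 and Nup62 lost their calls after median-ratio rescaling. The calls for Nup93 and Xpo5, counted below among the higher inner ring genes and exportins, were lost there too. So was that for Nup85 of the Y complex (limma adjusted p = 0.051). Nup85 was 140 and 104 FPKM in the knockouts against 60.8 and 56.6, 2.07-fold higher. Of the importin beta family 1 was higher and 5 lower, of the importin alpha genes 2 higher and 3 lower (Kpna1 and Kpna4 among the lower), of the 5 exportins tested 1 higher and 3 lower (Xpot among the lower), and of the inner ring 2 higher and 3 lower. Kpna1, Kpna4, Xpot and Nup210l had to come out lower, since only the 48 h controls brought them past the filter. Kpnb1 was 11.4 and 11.2 FPKM against 25.1 and 23.7 (-1.48, SE 0.27, adjusted p = 0.00499). Lmnb1 stood at 0.658 and 0.929 against 3.14 and 3.67, a description because it entered through control groups alone. Kpna2 did not pass, at 285 and 287 against 401 and 411 (-0.94, SE 0.28, adjusted p = 0.12), nor did Lmna at 15.8 and 23.6 against 31.2 and 29.7 (-1.06, SE 0.33, adjusted p = 0.106). These p-values belong to the change before the shift by the median gene, which was 0.43 here. After median-ratio rescaling more members were called lower, 27 in place of 21. Tpr was 7.08-fold lower in the knockouts, the only basket gene called. Nup155 (3.05 and 3.13 against 18.4 and 18.6, -2.68) and Nup205 (2.02 and 2.00 against 11.4 and 10.6, -2.43) were the lower inner ring genes together with Nup35 (-1.05), whose call was lost without replicate 2 of the controls (adjusted p of 0.0893). Nup43 was 74.5 and 77.6 against 254 and 295, 3.61-fold lower (-2.27, SE 0.22, adjusted p = 1.8e-05), and Kpna6 2.66 and 1.51 against 9.54 and 9.58 (-2.23). Oocyte markers moved with these results: their sum was 21539 and 17547 FPKM in the knockouts and 5639 and 5891 in the controls. In the controls Dppa3 alone was 5408 and 5659. The sum of 6 markers of the 2-cell stage was 9.52 and 41.0 in the knockouts against 169.7 and 153. The control sums were mostly Zfp352 (65.4 and 50.8), Eif1a (43.4 and 51.7) and Tdpoz4 (29.2 and 26.5). Zscan4d alone overlapped, at 3.88 and 16.7 in the knockouts against 16.6 and 13.2. The 12 granulosa and cumulus markers summed to 21.7 and 24.5 in the knockouts and 0.857 and 0.526 in the controls, and in the knockouts the sum was mostly Cyp19a1 (15.1 and 10.6) and Fshr (4.21 and 10.8), with Inha, Amh and Hsd3b1 below 0.15. The part of these markers' difference in the members' changes was not tested.

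The difference between the knockout effects at 48 h and in zygotes was tested directly. Limma called 30 of 48 members, 12 higher and 18 lower at 48 h (62.5%, with 66.2% of all genes called, 36.7% higher and 29.5% lower). The count includes genes that entered only through the 48 h controls. The difference was 5.44, SE 0.48, adjusted p = 2.18e-06 for Kpna7. For Xpo1 it was -4.01, SE 0.31, adjusted p = 2.53e-06, while for Kpna2 (-1.26, SE 0.39, adjusted p = 0.0612), Kpnb1 (-1.05, SE 0.39, adjusted p = 0.136), and Lmna (-0.56, SE 0.47, adjusted p = 0.718) it did not pass. For Ran it was -2.96, SE 0.49, adjusted p = 0.000783 and for Lbr -2.11, SE 0.33, adjusted p = 0.000771.

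In knockout zygotes few of these genes were called, and Lbr had the largest change. Limma called 6 of 48 members, 3 higher and 3 lower (12.5%, with 31.6% of all genes called, 18.5% higher and 13.1% lower), a smaller share than among all genes. The members' median change was -0.08. Calls for Lbr, Nup133 and Nup214 were kept in every fit without one library.

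Lbr was 19.3 and 12.3 FPKM in control zygotes and 150.1 and 173 in knockout zygotes, a 10.2-fold higher mean (3.29, SE 0.23, adjusted p = 2.66e-05). The same gene was 83.3 and 86.05 in control and 89.7 and 109 in knockout FGO (0.41, SE 0.23, adjusted p = 0.609), so control libraries fell 5.36-fold from FGO to zygote (-2.32, SE 0.23, adjusted p = 4.69e-05) and knockout libraries stood at or above the FGO level (0.61, SE 0.23, adjusted p = 0.0611). Lbr was the only member whose knockout effect differed between zygote and FGO by the test of the difference (2.89, SE 0.33, adjusted p = 0.000866; 2.08% of members tested, with 9.39% of all genes called). The same test gave 0.08, SE 0.48, adjusted p = 0.782 for Kpna7, -0.13, SE 0.39, adjusted p = 0.946 for Kpna2, -0.42, SE 0.39, adjusted p = 0.79 for Kpnb1 and -0.47, SE 0.31, adjusted p = 0.64 for Xpo1. It gave 0.01, SE 0.49, adjusted p = 0.859 for Ran, 0.68, SE 0.47, adjusted p = 0.279 for Lmna and -1.06, SE 0.47, adjusted p = 0.28 for Lmnb1.

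**Figure D5:**
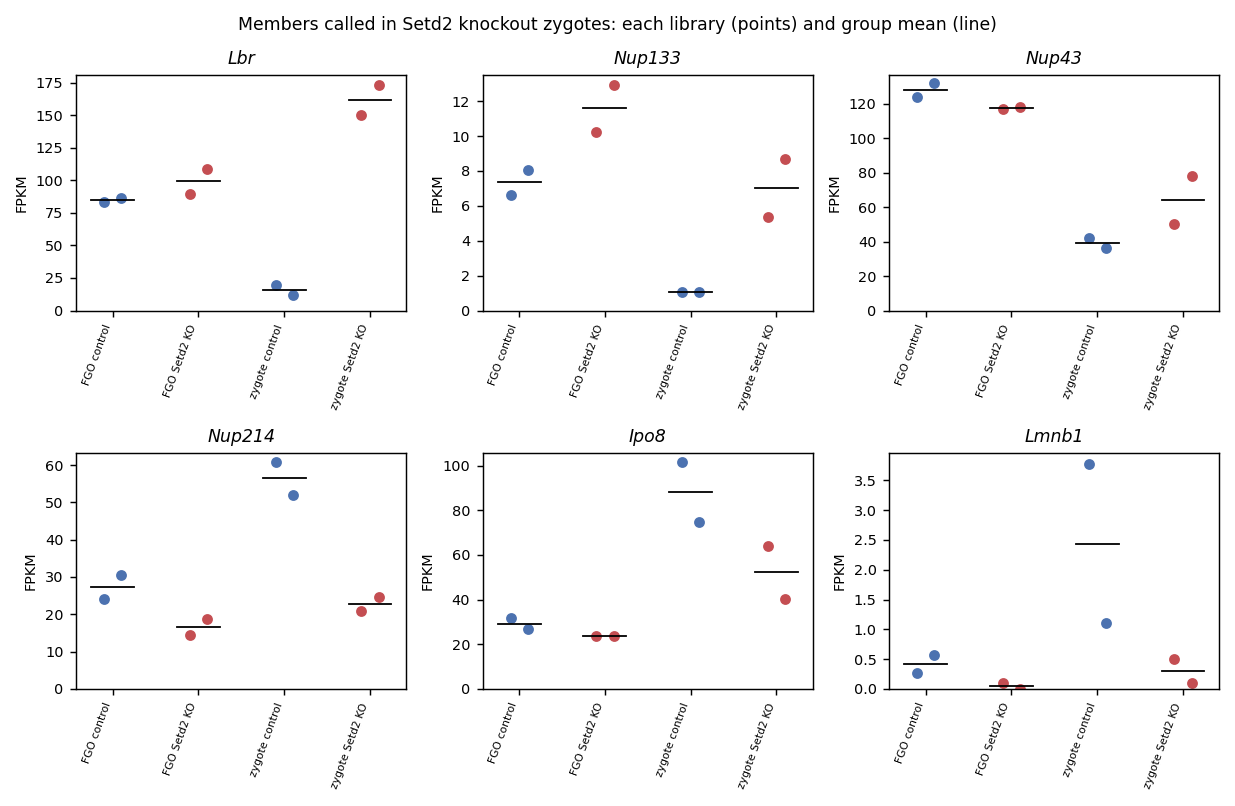
FPKM in each library (points: blue control, red knockout; bars: group mean) of full-grown oocytes and zygotes for the 6 genes called in knockout zygotes, each on its own linear axis from 0. Lbr, Nup133 and Nup43 are lower in control zygotes than in every other group shown, and Nup214, Ipo8 and Lmnb1 are highest in control zygotes.

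Nup133 and Nup43, both of the Y complex, were also lower in control zygotes than in knockout zygotes and control FGO. Nup133 was 1.08 and 1.04 FPKM in control and 5.36 and 8.69 in knockout zygotes (6.65-fold, 1.92, SE 0.28, adjusted p = 7e-04) after 6.64 and 8.08 in control FGO. Nup43 was 42.2 and 36.1 against 49.97 and 78.1 (0.65, SE 0.22, adjusted p = 0.0399), a call lost without either control library or without replicate 2 of the knockouts (adjusted p up to 0.233). For both genes the knockout zygotes lay between control zygotes and control FGO, or overlapped the latter.

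In the other direction Nup214, of the cytoplasmic face, was 60.97 and 51.98 FPKM in control and 20.9 and 24.7 in knockout zygotes (2.48-fold lower, -1.29, SE 0.23, adjusted p = 0.00262). Ipo8 was 102 and 74.8 against 64.2 and 40.2 (-0.78, SE 0.25, adjusted p = 0.038), a call lost without replicate 1 of the controls or replicate 2 of the knockouts (up to 0.241). Lmnb1, also among the calls, was 3.77 and 1.10 against 0.503 and 0.107, a description because it reached 1 FPKM in this table only in control zygotes and control 2-cell embryos. The main carriers did not pass, with 0.25, SE 0.34, adjusted p = 0.599 for Kpna7, 0.38, SE 0.28, adjusted p = 0.301 for Kpna2, -0.37, SE 0.27, adjusted p = 0.356 for Kpnb1 and -0.26, SE 0.22, adjusted p = 0.41 for Xpo1. Nor did Ran (-0.59, SE 0.35, adjusted p = 0.237) or Lmna (-0.44, SE 0.33, adjusted p = 0.356). The oocyte marker sum was 9227 and 9273 FPKM in control and 18520.5 and 19801 in knockout zygotes. Much of this difference was H1foo, at 2714 and 2306 in control and 9363 and 7515 in knockout zygotes. Bmp15 went the other way (1294 and 1711 against 1036 and 998), and Dppa3 overlapped (3156 and 3378 against 3052 and 3727). The part of these markers in the members' differences was not tested.

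From FGO to zygote, 16 of 48 members were called in controls, 12 higher and 4 lower (33.3%, with 42.5% of all genes called, 18.5% higher and 24.0% lower), and 10 in knockouts, 9 higher and 1 lower (20.8%, with 17.7% of all genes called, 12.6% higher and 5.10% lower). After median-ratio rescaling the knockout count was 4 higher and 2 lower, with 958 higher and 1149 lower among all 12199 genes. In controls Kpna3 rose from 40.1 and 38.98 to 94.8 and 149 FPKM (1.63, SE 0.22, adjusted p = 0.000343) and Ipo8 from 31.8 and 26.7 to 102 and 74.8 (1.61, SE 0.25, adjusted p = 0.000802). With the falls of Lbr, Nup133 (-1.96, SE 0.28, adjusted p = 0.000304) and Nup43 (-1.63, SE 0.22, adjusted p = 0.000223) these were the 5 control calls kept in every fit without one library. Both zygote libraries stood outside the range of both FGO libraries for each of the 5.

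Calls that rested on single libraries in controls were those for Xpo4, Nupl2, Nup62, Nup153, Nup214 and Tpr, whose rises of 1.26, 1.24, 1.17, 1.15, 1.09 and 0.94 each missed the threshold without one of the FGO controls or, for Nup62, Nup153 and Tpr, also without a zygote control (adjusted p up to 0.124 for Tpr). Rangap1, Nup35, Nup37, Nup88 and Lmnb1 were also called and also lost their call without one library, and Lmnb1 had entered through the control zygotes and 2-cell embryos. Kpna7 was at 371 and 369.6 and then 199 and 246 (-0.68, SE 0.34, adjusted p = 0.0998), and Kpna2 (0.75, SE 0.28, adjusted p = 0.0658), Xpo1 (0.58, SE 0.22, adjusted p = 0.0733), Kpnb1 (0.39, SE 0.27, adjusted p = 0.366), Ran (-0.44, SE 0.35, adjusted p = 0.275) and Lmna (-0.50, SE 0.33, adjusted p = 0.197) did not pass.

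In knockouts Nup98, of the mobile pool, went from 7.83 and 9.44 to 24.6 and 24.7 FPKM (1.33, SE 0.28, adjusted p = 0.00862) and Nupl1 from 13.2 and 16.95 to 43.5 and 38.5 (1.31, SE 0.33, adjusted p = 0.0171). Xpo4 (1.10), Kpna3 (0.99), Ipo8 (0.99), Tpr (0.78), Nup160 (0.69), Nup107 (0.61) and Nup50 (0.58) were the other rises and Nup43 (-0.99) the fall. None of the 10 calls was kept in every fit without one library, and without replicate 1 of the knockout FGO 0 members were called. Kpna7 (-0.55, SE 0.34, adjusted p = 0.387), Kpna2 (0.67, SE 0.28, adjusted p = 0.0819), Kpnb1 (0.02, SE 0.27, adjusted p = 0.84) and Xpo1 (0.16, SE 0.22, adjusted p = 0.479) did not pass, nor did Ran (-0.39, SE 0.35, adjusted p = 0.605), Lmna (0.22, SE 0.33, adjusted p = 0.573) and Lmnb1 (0.21, SE 0.33, adjusted p = 0.584).

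In FGO the knockout had lower Lmna, Rangap1 and Ipo4, and no member was called higher. Limma called 3 of 48 members (6.25%, with 6.92% of all genes called, 2.02% higher and 4.89% lower). Lmna was 39.7 and 41.5 FPKM in controls and 14.3 and 17.7 in knockouts, 2.54-fold lower (-1.11, SE 0.33, adjusted p = 0.0418). Rangap1 was 4.65 and 4.41 against 1.24 and 2.05 (-0.89, SE 0.27, adjusted p = 0.0412) and Ipo4 3.85 and 5.85 against 0.492 and 1.26 (-1.46, SE 0.30, adjusted p = 0.0134). In each gene both knockouts lay below both controls. The calls for Lmna and Rangap1 were lost without any one of the 4 libraries (adjusted p up to 0.274 and 0.307) and that for Ipo4 without either control or without replicate 1 of the knockouts (up to 0.148). After median-ratio rescaling 0 were higher and 1, Ipo4, lower, with 389 higher and 320 lower among all 12199 genes.

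Among the others Kpna7 was 371 and 369.6 FPKM in control and 323 and 413 in knockout FGO (0.17, SE 0.34, adjusted p = 0.994), and Kpna2 159 and 104 against 155 and 169 (0.52, SE 0.28, adjusted p = 0.507). Xpo1 (0.22, SE 0.22, adjusted p = 0.968), Kpnb1 (0.06, SE 0.27, adjusted p = 0.826), Ran (-0.59, SE 0.35, adjusted p = 0.199) and Lmnb1 (-0.24, SE 0.33, adjusted p = 0.466) did not pass. Granulosa and cumulus markers summed to 40.1 and 36.7 FPKM in control and 34.5 and 29.7 in knockout FGO. These close sums hold members that moved apart: Inha was 14.8 and 15.1 in controls and 0.816 and 0.519 in knockouts, Hsd3b1 4.95 and 4.03 against 0 in both, Cyp11a1 3.20 and 2.37 against 0.293 and 0.323, and Fshr 0.415 and 0.180 against 9.49 and 8.25. Their part in the lower Lmna was not tested.

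In growing oocytes limma called 0 of 49 members tested (0.0834% of all genes were called). Of all 10794 genes tested, 868 had an unadjusted p under 0.05, and so did 1 member. That 1 was Lmnb2, at 10.2 and 5.90 FPKM in Setd2+/- and 4.33 and 2.41 in Setd2-/- oocytes (-1.003, SE 0.42, adjusted p = 0.563). Kpna2 was 219.8 and 278 against 223 and 257 (-0.004, SE 0.16, adjusted p = 0.972), Ran 123 and 119 against 119 and 124 (0.05, SE 0.15, adjusted p = 0.996) and Xpo1 76.3 and 54.8 against 60.7 and 58.2 (-0.08, SE 0.20, adjusted p = 0.944), each with overlapping groups. Kpna7 (0.12, SE 0.44, adjusted p = 0.981), Kpnb1 (0.03, SE 0.25, adjusted p = 0.997), Lmna (0.13, SE 0.20, adjusted p = 0.962) and Lmnb1 (0.10, SE 0.50, adjusted p = 0.989) overlapped too. Lbr was 31.01 and 26.9 against 36.9 and 37.95, higher in both knockouts without passing (0.41, SE 0.21, adjusted p = 0.714). Groups stood apart for 10 members higher and 9 lower in the knockout, with 15.9% and 21.5% of all genes.

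In spindle transfer 8-cell embryos 0 of 47 members tested were called by limma (0% of all genes were called). Of all 9398 genes tested, 1243 had an unadjusted limma p under 0.05, and so did 4 members. They were Xpo6 at 4.85 and 5.30 FPKM with the Setd2+/- label and 10.6 and 10.8 with Setd2-/- (1.02, SE 0.32, adjusted p = 0.312), Lmna at 12.9 and 22.3 against 27.4 and 35.2 (0.91, SE 0.32, adjusted p = 0.344), Nup107 at 25.8 and 29.2 against 19.9 and 13.6 (-0.63, SE 0.28, adjusted p = 0.359) and Lbr at 183 and 160.0 against 255 and 215 (0.52, SE 0.19, adjusted p = 0.373). In each the groups did not overlap, as for 8 members higher and 13 lower in all (18.7% and 27.3% of all genes). Kpna2 (-0.18, SE 0.21, adjusted p = 0.63), Xpo1 (0.004, SE 0.19, adjusted p = 0.912), Kpnb1 (0.27, SE 0.25, adjusted p = 0.776), Ran (0.32, SE 0.20, adjusted p = 0.634) and Lmnb1 (0.42, SE 0.35, adjusted p = 0.708) had overlapping groups. Kpna1 was at 68.6 and 72.6 against 65.7 and 57.01, Ipo5 was at 106 and 94.7 against 84.6 and 78.2, and Kpna7 was at or below 0.203.

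In the Dnmt3l pair of FGO 21 members reached 10 FPKM in the higher library, and 1 was past 2-fold, higher (of the 4530 genes at that level 1.46% were, 0.773% higher and 0.684% lower). This was Xpo1, at 6.22 FPKM in the control and 12.7 in the knockout library, a ratio of 2.04. The lowest ratio was 0.570, for Ipo8, at 63.2 and 36.0. Kpna7 stood at 162 and 169.6, Kpna2 at 348 and 417, Lbr at 200.3 and 238, Lmna at 76.8 and 77.5 and Ran at 25.6 and 26.4. The median log2 ratio was 0.08 over the 21 members and -0.01 over all genes at that level. With 1 library in each group there is no replicate check of these differences, and granulosa and cumulus markers summed to 80.5 FPKM in the control and 26.0 in the knockout library.

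Other genes of nuclear transport and the envelope outside the symbol rule were examined in the same fits. Of 55 listed genes (other pore proteins, receptors, mRNA export factors, Ran regulators, envelope proteins and pore SUMO enzymes), 53 stand in the tables and 50 were tested with the FGO and embryos. From control zygote to 2-cell 22 rose and 14 fell (33.4% and 42.7% of all genes), and in the knockouts over the same time limma called 0 (0.205% of all genes). Ranbp2, the large cytoplasmic filament protein, went from 1.30 ± 0.284 to 31.6 ± 1.17 FPKM (SD, n = 2, 4.17, SE 0.24, adjusted p = 8.94e-08), and Pcid2, a factor of mRNA export, from 96.4 ± 22.01 to 4.09 ± 0.776 (-3.91, SE 0.24, adjusted p = 4.88e-08). Lemd3, a LEM-domain protein of the inner nuclear membrane, was listed at 0 in both control zygotes and at 11.5 ± 1.30 at 2-cell, a description because only the 2-cell controls brought it past the filter.

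For the knockout effect on this list, limma called 15 higher and 20 lower at 48 h (43.2% and 30.6% of all genes), 6 higher and 6 lower in zygotes (18.5% and 13.1%), 0 higher and 1 lower in FGO (2.02% and 4.89%) and 0 in growing oocytes (0.0834% either way) and spindle transfer embryos (0%). With median-ratio rescaling the 48 h split was 9 higher and 24 lower (4468 and 4530 of all 12199 genes) and no FGO call remained. At 48 h Pcid2 was higher in the knockouts (3.42, SE 0.24, adjusted p = 1.17e-07) and Nxt2 lower (-3.72, SE 0.23, adjusted p = 2.67e-07). In zygotes Ddx39b, an RNA helicase of mRNA export, was 76.98 ± 28.3 FPKM in knockouts and 12.5 ± 0.0404 in controls (2.47, SE 0.28, adjusted p = 0.000204), and Nxt1, a cofactor of the mRNA exporter, 314 ± 44.8 and 96.96 ± 10.5 (1.67, SE 0.18, adjusted p = 0.000126), while Nxt2 was lower (-1.93, SE 0.23, adjusted p = 0.000273). The one FGO call was Sun1, a linker of the envelope to the cytoskeleton, at 7.76 ± 1.92 against 17.6 ± 4.81 (-0.89, SE 0.26, adjusted p = 0.0331). From FGO to zygote 15 rose and 9 fell in controls (18.5% and 24.0% of all genes), led by a fall of Ddx39b (-2.83, SE 0.28, adjusted p = 4.72e-05), a rise of Tnpo1 (2.28, SE 0.26, adjusted p = 0.000116) and a fall of Nxt1 (-1.34, SE 0.18, adjusted p = 0.000185), and 9 rose and 1 fell in knockouts (12.6% and 5.10% of all genes).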

How the data were processed

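RNA was measured by Smart-seq2 in 22 libraries of mouse oocytes and embryos, in 4 tables that were normalized separately. The deposited values are FPKM for each gene symbol as the authors made them, and Cufflinks 2.0.2, TopHat2 2.0.11 and mm9 are listed in the submitters' processing notes with no role for each. The files give no read counts, so depth was only estimated, from the smallest steps of low values. Members were found by symbol. Members and gene lists were chosen with earlier results of these data known. FPKM + 1 was log2-transformed, genes with at least 1 FPKM in 2 libraries of a table were kept, and groups were compared with limma 3.58.1 in R 4.3.3 (moderated with a mean-variance trend, Benjamini-Hochberg adjustment over all genes of the table, 2-sided). FGO, zygotes and 48 h embryos were fitted together. The scripts were checked on simulated data in which 200 genes changed 4-fold. For the knockout effect limma recovered 58% of them in growing oocytes and 44% in spindle transfer embryos. In FGO, zygotes and 48 h embryos it recovered 83.5% to 89.5%. The counts of 0 called members in growing oocytes and spindle transfer embryos therefore do not show that no member changed.

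Per comparison the text names the 8 largest called rises and falls with no overlap and a higher group of at least 5 FPKM, Kpna2, Kpna7, Kpnb1, Ran, Xpo1, Lmna, Lmnb1 and Lbr in every comparison, up to 3 called genes of the pathway lists, and in the Dnmt3l pair those past 2-fold. Other members are named to account for every one, which the same rule allows. Promoter windows are from RefSeq (GRCm38.p6), a different build from that of the expression values. The alternatives were another pseudocount, other filters, median-ratio rescaling, a replicate block, fits of the compared groups alone and leaving out each library. Samples with the same number were not treated as pairs.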

Additional observations from a re-analysis of the deposited data

Results flagged for a closer look

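These results were singled out because the knockout effect differed between stages by limma's test of the difference itself (log2(FPKM + 1) scale, relative to the median gene). For Lbr the effect was 2.89 higher in zygotes than in FGO (adjusted p = 0.000866). Between 48 h and zygote the effect was higher by 5.44 for Kpna7 (adjusted p = 2.18e-06), 2.61 for Ipo8 (2.97e-05), 1.98 for Kpna3 (6.33e-05), 1.78 for Nup37 (6.61e-05) and 1.66 for Nup88 (8.76e-05). The same difference was -4.01 for Xpo1 (2.53e-06), -3.91 for Ipo5 (4.69e-06), -3.85 for Ipo4 (3.23e-05) and -3.79 for Ipo7 (4.65e-05). For Kpna1 the difference was -6.27, a description only, since the 48 h controls alone brought it past the filter on low values. At 48 h controls were labelled 2C and knockouts 1C, so genotype and cell stage cannot be told apart in these 10 genes. Single libraries that stand apart could not be tested, because no group had more than 2.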

How the results depend on the processing

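Counts of called members kept within 1.5 times the main count in growing oocytes, spindle transfer embryos and the 48 h knockout effect under each alternative run. So did those for the control step from zygote to 48 h and for the difference between 48 h and zygote. With median-ratio rescaling the control step had 25 members higher and 14 lower. In FGO the 3 calls became 1 with a pseudocount of 0.1 FPKM, with no filter, with median-ratio rescaling and with the replicate block, and 0 to 1 without one library. In zygotes the 6 became 3 with the compared groups alone and ranged from 3 (without knockout replicate 2) to 11 (without knockout replicate 1). From FGO to zygote the 16 control calls became 10 to 14 without one library, fewest without FGO replicate 1, and the 10 knockout calls became 6 with median-ratio rescaling, 2 with the compared groups alone and 0 to 11 without one library. From zygote to 48 h in knockouts the count was 0 to 1, the 1 without zygote replicate 2. The single difference between zygote and FGO became 2 with a pseudocount of 0.1 FPKM, 3 with a filter at 5 FPKM and 1 to 3 without one library. The Dnmt3l pair gave 2 members past 2-fold when 1 FPKM sufficed. The cause of these shifts was not tested.

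Changes that reversed were small in the main fit, but some ranged widely without one library. With a pseudocount of 0.1 FPKM they were Kpna2 in growing oocytes (0.0015) and Kpnb1 from FGO to zygote in knockouts (-0.0025), the latter also with a filter at 5 FPKM (-0.0089) and with rescaling (-0.085). With no filter they were Kpnb1 in FGO (-0.096) and Xpo1 in spindle transfer embryos (-0.038). Without one library the ranges crossed 0 in growing oocytes for Kpna7 (-0.41 to 0.67), Lmnb1 (-0.54 to 0.75), Xpo1 (-0.30 to 0.16), Kpna2 (-0.17 to 0.18), Kpnb1 (-0.098 to 0.15) and Lmna (-0.032 to 0.27), and in spindle transfer embryos for Xpo1 (-0.066 to 0.066). From FGO to zygote in knockouts they did for Lmnb1 (-0.078 to 0.49), Kpnb1 (-0.14 to 0.17) and Lmna (-0.12 to 0.55). From zygote to 48 h in knockouts they did for Kpna2 (-0.26 to 0.34), Kpnb1 (-0.090 to 0.26), Ran (-0.60 to 0.30), Lmna (-0.42 to 0.29), Xpo1 (-0.13 to 0.066) and Kpna7 (-0.37 to 0.028). Of all these only Nup93 at 48 h (-0.12 to 0.60) had been called.

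Same-numbered libraries correlated weakly in their deviations (0.00244 to 0.186). A weak correlation cannot show whether the samples were collected as pairs. With the replicate block the counts were 0 in growing oocytes, 1 in FGO, 7 in zygotes, 36 at 48 h, 0 in spindle transfer embryos, 19 and 9 from FGO to zygote in controls and knockouts, 36 and 0 from zygote to 48 h, and 1 and 31 for the differences between stages. The absence of read counts limits statements on low genes.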
